A study of Mus musculus with 10 samples.

Results

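The genes described here build, load, receive and scaffold the inhibitory transmitter GABA, or mark the interneurons that release it. The list holds 29 genes: 9 GABA-A receptor subunits, both GABA-B receptor subunits, 3 genes of GABA synthesis and vesicle loading, a postsynaptic scaffold and a chloride extruder, 5 interneuron neuropeptides, 4 other interneuron class markers, and 3 transcription factors with the receptor Erbb4. A gene was taken from every probe set that the array platform assigns to it and to no other gene, and the probe set that was brightest on average over the 10 arrays stands for the gene. This gave 66 probe sets for 28 of the 29 genes, among 18193 genes and 45037 probe sets in all. No probe set of that kind was found for Gabbr2, which was not analysed here.

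Affymetrix expression arrays were run on the whole hippocampus of 10 mice, adult females of the SJL/J strain, taken 2 days after an axonal lesion. In 5 mice the lesion was the only intervention (AxL), and in 5 mice the lesion followed an adoptive transfer of T cells specific for the myelin protein Plp (TPlp+AxL). All 10 mice carried the lesion, so the groups differ in the transferred T cells on a lesioned background. Each array is 1 mouse, and the values are log2 expression. No unlesioned hippocampus is among the samples used here. The side of the hippocampus relative to the lesion is not given in the sources used here.

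GABA is made from glutamate by the decarboxylases Gad1 and Gad2 and packed into vesicles by Slc32a1. It acts on GABA-A receptors, pentameric chloride channels held under the synapse by gephyrin (Gphn), and on GABA-B receptors, which are coupled to G proteins and need both of their subunits at the cell surface. The chloride extruder Slc12a5 (KCC2) keeps internal chloride low in mature neurons, so that opening the channel inhibits the cell. Hippocampal interneurons are few beside the principal cells and fall into classes known by Pvalb, Sst, Vip, Cck, Npy, Reln and Nos1, while most receptor subunits, Gabbr1 and Slc12a5 are also expressed by principal cells. In whole tissue, fewer cells of a type and less RNA per cell cannot be told apart.

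Markers of the tissue and of the intervention were read first. All 12 hippocampal subfield markers had a probe set, with mean levels from 6.27 to 12.14. Among them were Prox1 of granule cells (7.82 to 8.60 over the 10 arrays), Wfs1 of CA1 (10.54 to 11.03) and Zbtb20 (11.92 to 12.43). These are named here as tissue markers and not for their change. Prox1 lay close to the array medians given below. Of the 12, 0 passed the limma test between groups, with 1 at an unadjusted p under 0.05 against 14.3% of all probe sets. The smallest p were those of Mndal (log2 change 0.24, SE 0.05, adjusted p = 0.0725) and Fibcd1 (-0.26, SE 0.12, adjusted p = 0.356). In TPlp+AxL 10 of 11 measured interferon-inducible genes rose, with log2 changes from 0.96 for Irf1 to 2.45 for Iigp1, and Gbp2, Gbp3, Irgm1, Igtp, Psmb9, Cxcl9, Cxcl10 and Ifi47 between them. Of the 10 limma fits with 1 array left out, the call was lost in 4 for Psmb9 (adjusted p up to 0.0734). It was lost in 3 for Gbp3 (up to 0.0614), in 1 for Irgm1 (0.0522) and in 0 for the other interferon-inducible genes named. The T cell receptor gene Cd3g rose (0.87, SE 0.13, adjusted p = 0.0122) and so did Cd3d (0.63, SE 0.12, adjusted p = 0.0302), whose call was lost in 5 of the 10 fits with 1 array left out (without AxL 1, AxL 3, AxL 4, AxL 5 or TPlp+AxL 4, adjusted p up to 0.0977). The array medians lay between 7.88 and 7.92. On 3 arrays choroid plexus genes stood apart: the mean of 11 such genes was 10.18 in AxL 3, 9.35 in AxL 5 and 9.40 in TPlp+AxL 1, and between 8.11 and 8.24 on the other 7. With these 3 arrays left out together, 0 of the interferon-inducible and T cell genes named here passed. That fit holds fewer arrays, and in it 1 of all 45037 probe sets passed. Without AxL 3, AxL 5 or TPlp+AxL 1 singly, the change was 0.95, 0.96 and 0.93 for Irf1 and 2.49, 2.50 and 2.48 for Iigp1.

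Of the 28 measured genes, 1 fell in TPlp+AxL (Gabbr1) and 0 rose at an adjusted p under 0.05 in limma. Of all probe sets, 0.835% passed that test in either direction and 0.189% were lower. An unadjusted p under 0.05 was found for 3 of the 28 (Gabbr1, Slc12a5 and Gabrb1), against 14.3% of all probe sets. Counts this small differ from the background by about 1 gene, and nothing is read from the gap. With each array's median subtracted the loose threshold was met by 9 of the 28 genes, and nothing is read from this either. The share of all probe sets that met it in that fit was not counted. In that fit 210 probe sets were lower at an adjusted p under 0.05 in limma, against 85 with the deposited values. The number of lower probe sets over the whole table, 85, was 26 with TPlp+AxL 4 left out and 187 with AxL 2 left out, the extremes over the 10 arrays.

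The direction of the differences was one-sided. The log2 change, the TPlp+AxL mean less the AxL mean, was negative for 25 genes and positive for 3 (Gabra2, Gabra5 and Gabrg3), with a median of -0.10. Over all probe sets the median was -0.0034 and 51.7% were negative. Leaving out AxL 4 gave 23 negative and 5 positive genes. The estimates were narrow: the 95% interval lay within 0.5 of 0 on the log2 scale for 25 of the 28 genes and within 0.3 for 19.

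**Figure D1:**
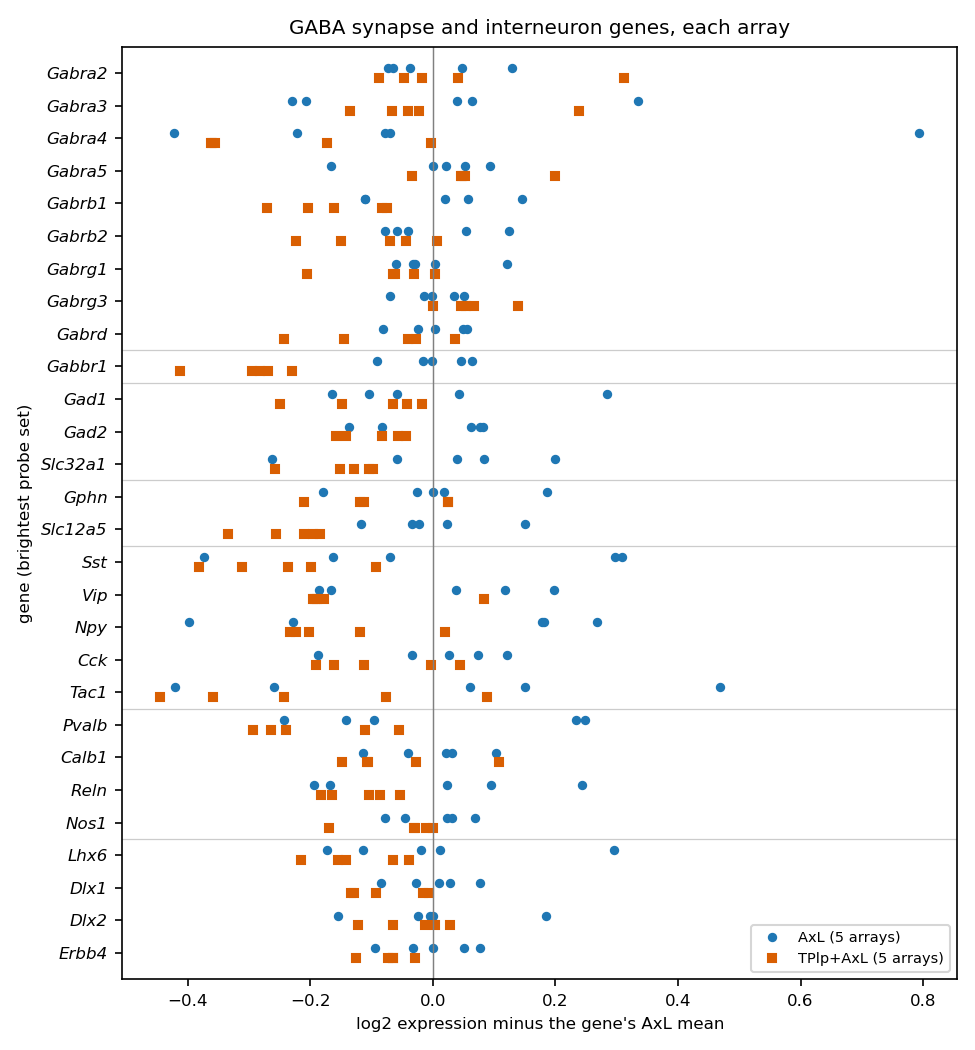
Log2 expression of each gene on each array, as the difference from that gene's AxL mean, with AxL arrays as blue circles and TPlp+AxL arrays as orange squares and grey lines between functional groups. The 5 TPlp+AxL squares lie wholly below the AxL circles for Gabbr1 and Slc12a5, and the groups overlap for the other 26 genes.

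The same downward lean was present in bright probe sets of every kind. Probe sets with a mean level over 12 had a median log2 change of -0.14, and 94.8% of them were negative, while those with a level of 7 to 8 had a median of 0.03. Each gene was therefore set beside the 1000 probe sets nearest to it in mean level. The median over the 28 of these level-matched medians was -0.10, the same as the genes' own median. By gene, 17 lay below their level-matched median and 11 above it, and 25 lay inside the 5th to 95th percentile of it. This is a description of where the genes sit and carries no test.

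**Figure D2:**
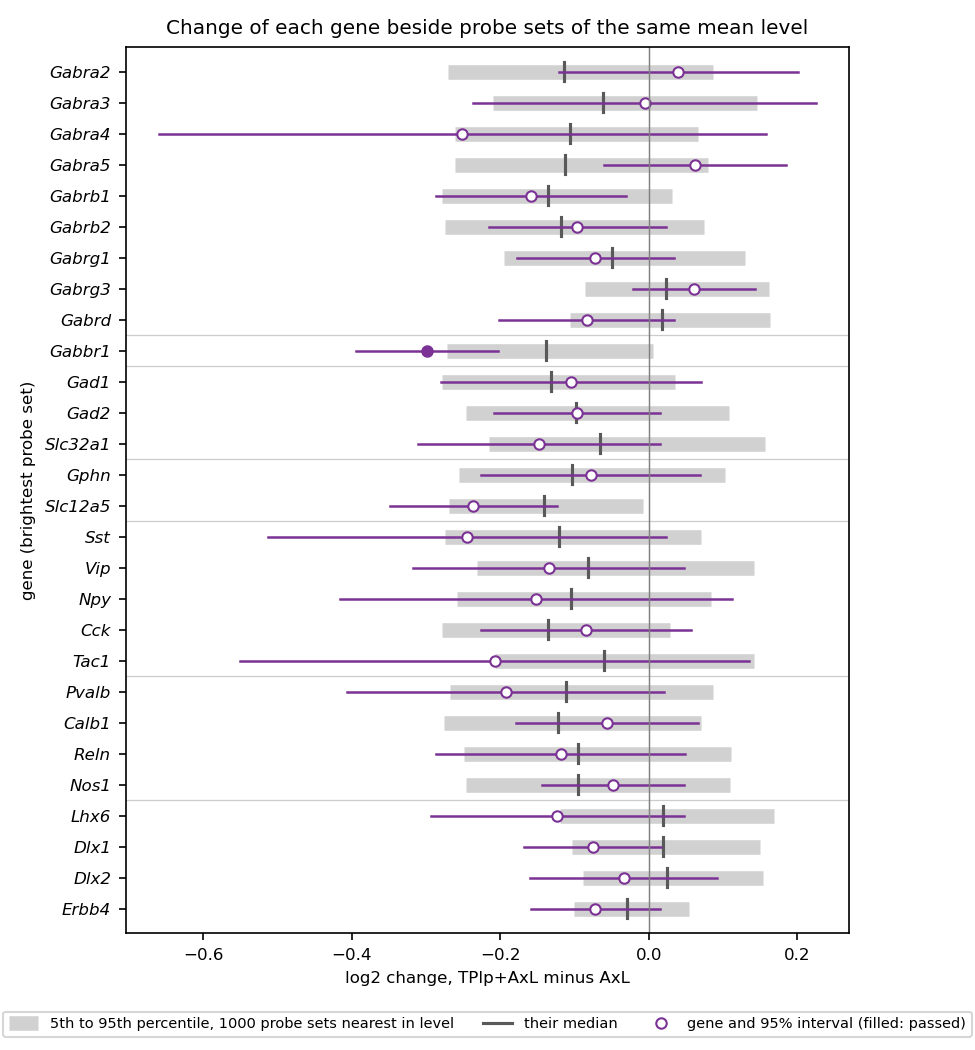
Log2 change of each gene (circle, with the 95% interval from limma as a line) beside the 5th to 95th percentile (grey bar) and median (dark tick) of the 1000 probe sets nearest in mean level. Most circles sit inside their grey bar and near its tick, at a median of -0.10 for both. The filled circle of Gabbr1 at -0.30 is left of its bar, and Lhx6 (-0.12) and Tac1 (-0.21) lie just left of theirs.

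Gabbr1 encodes the subunit of the GABA-B receptor that binds GABA. Its brightest probe set, 1455021_at, read 12.88, 12.80, 12.94, 12.96 and 12.89 in AxL replicates 1 to 5. In TPlp+AxL replicates 1 to 5 it read 12.63, 12.60, 12.61, 12.48 and 12.67. Every TPlp+AxL array was below every AxL array, and the SD was 0.06 in AxL and 0.07 in TPlp+AxL (n = 5 each). The log2 change was -0.30 (SE 0.04, 95% interval -0.39 to -0.20, adjusted p = 0.00892), to 81.3% of the AxL level. Of the 1000 probe sets nearest in level 2.5% had a lower change, and their median was -0.14.

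The other 3 Gabbr1 probe sets did not pass the test. Probe set 1437188_at had a log2 change of -0.12 (SE 0.04, adjusted p = 0.277), close to its level-matched median of -0.13. Probe set 1422051_a_at had a change of -0.16 (SE 0.14, adjusted p = 0.635), with AxL 4 at 9.40 and the other AxL arrays between 8.61 and 8.79. The dimmest, 1425595_at, had a change of 0.11 (SE 0.04, adjusted p = 0.253). With the 4 averaged, Gabbr1 had a change of -0.12 and an adjusted p of 0.294. The call was also lost after quantile normalization (-0.17, adjusted p = 0.142) and cyclic loess (-0.17, adjusted p = 0.0933), and without the 3 arrays high in choroid plexus genes (-0.29, adjusted p = 0.216).

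Slc12a5 extrudes chloride from mature neurons. Its probe set 1451674_at read 13.10, 13.01, 13.15, 13.28 and 13.09 in AxL and 12.93, 12.94, 12.87, 12.79 and 12.92 in TPlp+AxL. The groups again did not overlap. Its log2 change was -0.24 (SE 0.05, 95% interval -0.35 to -0.12), and it did not pass the test (adjusted p = 0.066). It passed without AxL 2 (adjusted p = 0.0372) and with each array's median subtracted (adjusted p = 0.0367), while after cyclic loess the change was -0.10 (adjusted p = 0.436). After cyclic loess its groups overlapped, while those of the brightest Gabbr1 probe set stayed apart. Of its level-matched probe sets 8.9% had a lower change. The dim second probe set, 1425337_at, had a change of -0.05 (SE 0.04, adjusted p = 0.564).

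Groups that did not overlap, with TPlp+AxL lower, were found for these 2 of the 28 genes and for 1.64% of all probe sets. Both genes are bright. Among the 1181 probe sets with a level over 12, 7.45% had such groups and 2.54% were lower in the test, and 2 of the 5 GABA and interneuron genes in that range had such groups.

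**Figure D3:**
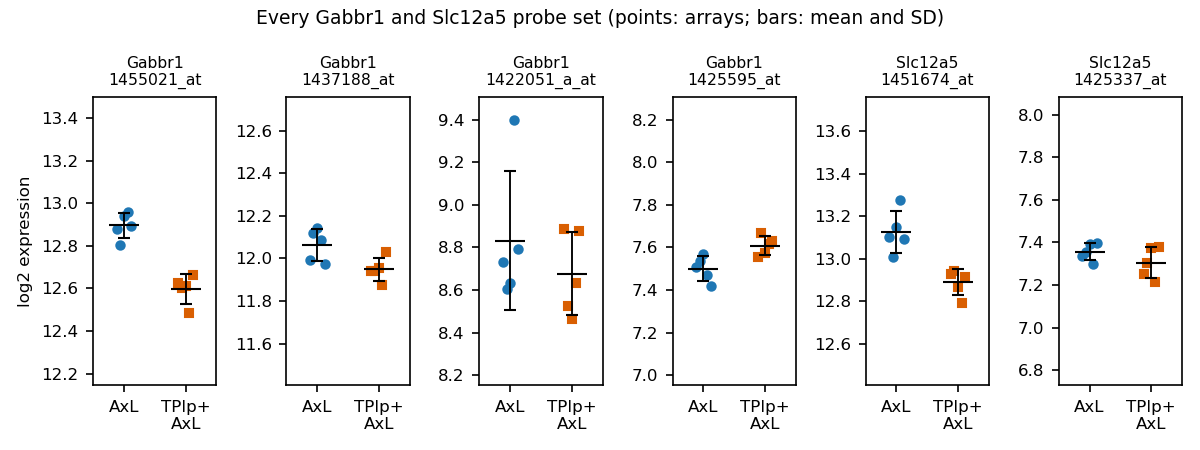
Log2 expression of the 4 Gabbr1 and 2 Slc12a5 probe sets on each array, in panels of equal height in log2 units, with the group mean and SD as bars (n = 5 per group). The groups are apart in 1455021_at and 1451674_at and overlap in the other 4 probe sets, where 1425595_at has the opposite sign at 0.11.

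The promoters of these 2 genes are shown because theirs were the groups that did not overlap in the deposited values. Each line gives the 250 bases before the annotated start on the plus strand, from RefSeq on GRCm38.p6, with every CpG in capitals. The Gabbr1 window is at chr17:37045716-37045965, and the window of the first of 2 annotated Slc12a5 starts at chr2:164960596-164960845.
Gabbr1: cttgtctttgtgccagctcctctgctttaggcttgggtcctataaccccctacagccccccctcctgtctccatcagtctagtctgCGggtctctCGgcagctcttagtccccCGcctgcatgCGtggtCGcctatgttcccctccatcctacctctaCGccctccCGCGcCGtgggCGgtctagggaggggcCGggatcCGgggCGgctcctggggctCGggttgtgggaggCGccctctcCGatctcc
Slc12a5: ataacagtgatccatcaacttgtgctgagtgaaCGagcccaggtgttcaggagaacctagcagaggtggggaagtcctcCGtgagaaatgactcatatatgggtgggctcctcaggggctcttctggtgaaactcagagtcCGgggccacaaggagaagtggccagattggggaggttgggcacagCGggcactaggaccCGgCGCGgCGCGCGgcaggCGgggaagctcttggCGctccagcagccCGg
These stretches hold 16 and 13 CpG.

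Since interferon-inducible genes rose, the promoter windows, here with 50 further bases after the start, were searched for TTCNNNGAA, the palindromic core of a gamma-activated site, which reads the same on either strand. RefSeq windows were found for 26 of the 28 genes, 34 windows in all. The motif was present in 2 of them (5.88%), 1 of Gabrb1 and 1 of Gabrg1, against 8.30% of all 32851 windows in the table. It was not found in the Gabbr1 window or in either Slc12a5 window. The median CpG count per window was 15 for these genes and 7 over all windows.

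None of the 9 GABA-A subunits passed the test. Their median log2 change was -0.07 against a level-matched median of -0.11, with 6 negative and 3 positive values. Gabrb1, a beta subunit, read 12.57, 12.44, 12.61, 12.69 and 12.44 in AxL and 12.47, 12.39, 12.28, 12.34 and 12.47 in TPlp+AxL. The groups overlapped, and the change of -0.16 (SE 0.06, adjusted p = 0.26) was near the -0.14 of its level. Gabra4, an alpha subunit typical of extrasynaptic receptors, had the widest spread: AxL 4 read 11.82 and the other AxL arrays 10.61 to 10.96, while TPlp+AxL ran from 10.67 to 11.03. Its change was -0.25 (SE 0.19, adjusted p = 0.549), and -0.05 without AxL 4.

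Gabra5, the alpha subunit of tonic hippocampal inhibition, and Gabra2, an alpha subunit enriched at the axon initial segment, stood on the other side of their level. Gabra5 read 11.26, 11.00, 11.17, 11.19 and 11.22 in AxL and 11.37, 11.22, 11.14, 11.22 and 11.22 in TPlp+AxL. The change was 0.06 (SE 0.06, adjusted p = 0.621), and 93.7% of the probe sets of its level had a lower one. After cyclic loess it was 0.16 (adjusted p = 0.173). Gabra2 had a change of 0.04 (SE 0.07, adjusted p = 0.827), with TPlp+AxL 1 at 11.83 and the other TPlp+AxL arrays at 11.43 to 11.56. The Gabra2 change was -0.03 without TPlp+AxL 1 and -0.04 without the 3 arrays high in choroid plexus genes. The other Gabra2 probe sets had changes of -0.09, 0.01, -0.02 and 0.01, and the average of its probe sets gave -0.01.

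The remaining subunits stayed close to 0. Gabra3 had a log2 change of -0.01 (SE 0.11), Gabrb2 of -0.10 (SE 0.05), the gamma subunits Gabrg1 and Gabrg3 of -0.07 (SE 0.05) and 0.06 (SE 0.04), and Gabrd, the delta subunit of granule cells and some interneurons, of -0.08 (SE 0.05). Their adjusted p ran from 0.434 to 0.986. Gabra3 changed sign in 6 of the 10 leave-one-out fits. Gabrd ran from 7.94 to 8.08 in AxL and from 7.78 to 8.06 in TPlp+AxL, with overlap.

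The 3 genes that make and load GABA had a median log2 change of -0.10, equal to that of their level. Gad1 read 12.26, 12.41, 12.31, 12.65 and 12.20 in AxL and 12.35, 12.32, 12.22, 12.12 and 12.30 in TPlp+AxL. Its change was -0.10 (SE 0.08, adjusted p = 0.558), and the groups overlapped widely apart from AxL 4. Gad2 read 10.25, 10.47, 10.45, 10.46 and 10.30 in AxL and 10.24, 10.34, 10.30, 10.23 and 10.33 in TPlp+AxL. Its change was -0.10 (SE 0.05, adjusted p = 0.408), while its dim second probe set had a change of 0.16 (SE 0.10, adjusted p = 0.493). Slc32a1, the vesicular transporter, ran from 9.38 to 9.84 in AxL and from 9.38 to 9.54 in TPlp+AxL, a change of -0.15 (SE 0.07, adjusted p = 0.39). Gphn, the scaffold, had a change of -0.08 (SE 0.07, adjusted p = 0.606), with AxL between 10.57 and 10.94 and TPlp+AxL between 10.54 and 10.77.

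The 5 interneuron neuropeptides all had negative log2 changes, with a median of -0.15 against -0.10 at their levels, and 0 passed the test. Sst, somatostatin of dendrite-targeting interneurons, read 11.63, 12.30, 12.31, 11.93 and 11.84 in AxL and 11.69, 11.80, 11.91, 11.76 and 11.62 in TPlp+AxL. AxL 2 and AxL 3 were high and the other AxL arrays lay in or next to the TPlp+AxL range. The change was -0.24 (SE 0.12, 95% interval -0.51 to 0.02, adjusted p = 0.386). Npy read 10.69, 11.27, 11.36, 11.27 and 10.86 in AxL and 10.87, 10.97, 11.11, 10.86 and 10.89 in TPlp+AxL. Here AxL 2, AxL 3 and AxL 4 were above every TPlp+AxL array, and the change was -0.15 (SE 0.12, adjusted p = 0.575). It ran from -0.25 without AxL 1 to -0.08 without AxL 3.

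Tac1, the precursor of substance P, ran from 9.02 to 9.91 in AxL, with AxL 3 highest, and from 8.99 to 9.53 in TPlp+AxL. Its log2 change was -0.21 (SE 0.16, adjusted p = 0.553), and -0.09 without AxL 3. Vip, of interneurons that target other interneurons, had a change of -0.13 (SE 0.08, adjusted p = 0.471), and 4 of its TPlp+AxL arrays lay between 9.92 and 9.94 with TPlp+AxL 5 at 10.20. Cck, which principal cells also express, had a change of -0.08 (SE 0.06, adjusted p = 0.558), above the -0.14 of its level.

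Of the 4 other class markers 0 passed, and their median log2 change was -0.09 against -0.10 at their levels. Pvalb, the calcium buffer of fast-spiking basket and axo-axonic cells, read 11.21, 11.70, 11.68, 11.35 and 11.31 in AxL and 11.18, 11.16, 11.40, 11.21 and 11.34 in TPlp+AxL. AxL 2 and AxL 3 were again the highest of the 10, and the change was -0.19 (SE 0.10, adjusted p = 0.389). Reln, of neurogliaform and related cells, had a change of -0.12 (SE 0.08, adjusted p = 0.49), Calb1, also a marker of granule cells and CA1, of -0.06 (SE 0.06, adjusted p = 0.656), and Nos1 of -0.05 (SE 0.04, adjusted p = 0.627). A second Nos1 probe set, 1438483_at, had a change of -0.20 (SE 0.09, adjusted p = 0.335), and the other 3 Calb1 probe sets had changes of 0.17, 0.11 and 0.15, with adjusted p from 0.414 to 0.504.

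**Figure D4:**
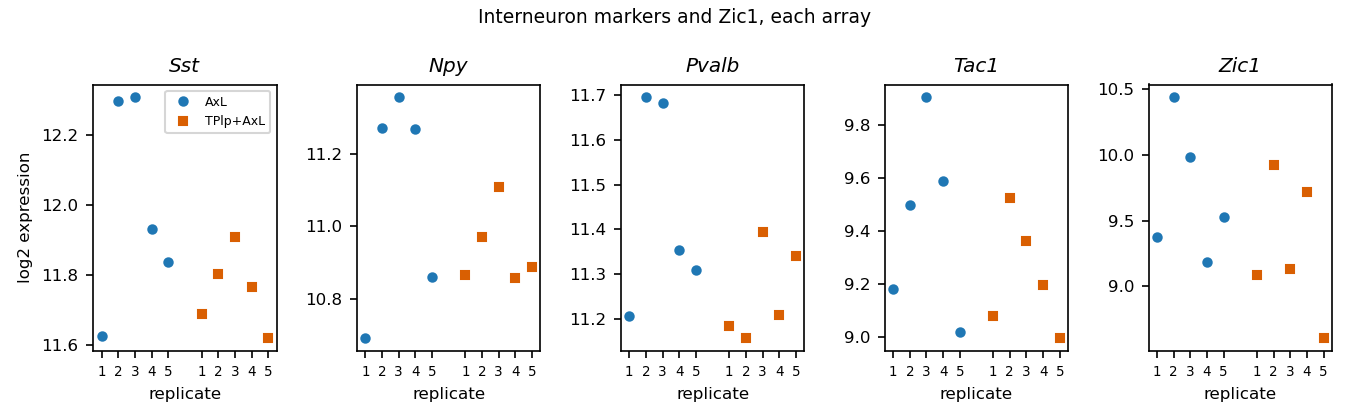
Log2 expression of Sst, Npy, Pvalb and Tac1 by replicate in AxL (blue circles) and TPlp+AxL (orange squares), with Zic1 beside them, each panel on its own axis. AxL 2 and AxL 3 are the highest arrays for Sst and Pvalb, at 12.30 and 12.31 and at 11.70 and 11.68. They are also the highest for Zic1, a thalamus and habenula marker singled out after its values were seen. Zic1 is also high in TPlp+AxL 2 (9.92), where Sst and Pvalb are not. Rora, Lef1, Nwd2 and Tcf7l2 of the same list, not shown, have their lowest AxL value in AxL 2.

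Zic1, a marker of thalamus and habenula that was singled out after its values were seen, read 9.38, 10.45, 9.98, 9.18 and 9.53 in AxL and 9.09, 9.92, 9.13, 9.72 and 8.60 in TPlp+AxL. It too was highest in AxL 2 and AxL 3, but it was high in TPlp+AxL 2 and TPlp+AxL 4, where Sst and Pvalb were not. Other genes of its list ran the other way: Rora (9.71), Lef1 (7.97), Nwd2 (9.51) and Tcf7l2 (7.70) had their lowest AxL value in AxL 2. The mean of the whole thalamus and habenula list, 10 of 10 genes measured, ran from 8.65 to 8.75 in AxL and from 8.55 to 8.68 in TPlp+AxL. It was highest of all arrays in AxL 3 (8.75) and AxL 2 (8.74), with Zic1 among the genes averaged. For striatum and septum, 8 of 10 measured, it ran from 8.65 to 8.82 and from 8.66 to 8.73. In both lists 0 genes passed in limma, with 0 and 1 at an unadjusted p under 0.05, against 14.3% of all probe sets. The smallest p in the lists were those of Nwd2 (-0.14, adjusted p = 0.468) and Pou4f1 (0.08, adjusted p = 0.481), and of Ppp1r1b (-0.27, adjusted p = 0.258) and Isl1 (0.08, adjusted p = 0.651). The part of these tissues in the interneuron values was not tested.

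The transcription factors of interneurons from the ganglionic eminences and Erbb4, the neuregulin receptor of interneurons, gave low signals, and their level-matched medians centred on 0.02. All 4 lay below the median of their own level, and 0 passed. Lhx6, of Pvalb and Sst cells, had a log2 change of -0.12 (SE 0.08, adjusted p = 0.481), with 4.7% of the probe sets of its level lower. It ran from 7.98 to 8.45 in AxL and from 7.94 to 8.12 in TPlp+AxL, so that the groups overlapped and AxL 4 was highest. Without AxL 4 its change was -0.05. Dlx1 had a change of -0.08 (SE 0.04, adjusted p = 0.431), Dlx2 of -0.03 (SE 0.06, adjusted p = 0.811) and Erbb4 of -0.07 (SE 0.04, adjusted p = 0.424). The mean level of Erbb4, 5.88, was near the lowest value on any array, 5.45.

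The second and further probe sets did not repeat the one-sided picture. Of 38 such probe sets in 19 genes, 21 had a positive and 17 a negative log2 change, with a median of 0.01. Of the 38, 0 passed the test, with 3 at an unadjusted p under 0.05 in limma, against 14.3% of all probe sets. In 14 of the 19 genes at least 1 of them had the opposite sign to the brightest probe set, 20 probe sets in all. Of these 20, 14 had a mean level under 8, in the range where probe sets of all genes had medians near or above 0. The median level was 7.51 for the opposite-sign and 8.30 for the same-sign probe sets. Same-sign probe sets under 8 included those of Slc32a1 (7.93, 7.58 and 7.37) and Slc12a5 (7.33). Opposite-sign ones also lay at 10.26 and 10.14 (Gabrb2) and 9.97 (Gabrb1). The part of the level in these signs was not tested.

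The split of signs also depended on the normalization. After quantile normalization, and likewise after cyclic loess, 18 of the 28 genes were negative and 10 positive, with a median log2 change of -0.04. These steps moved the median of probe sets with a level over 12 from -0.14 to 0.0024 and -0.0083. Gabra3, Gabrb2, Gad1, Gphn, Cck, Calb1 and Nos1 turned positive under both, with values from 0.01 to 0.07. Subtracting each array's median, which shifted all probe sets by -0.03, kept 25 negative and 3 positive.

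**Figure D5:**
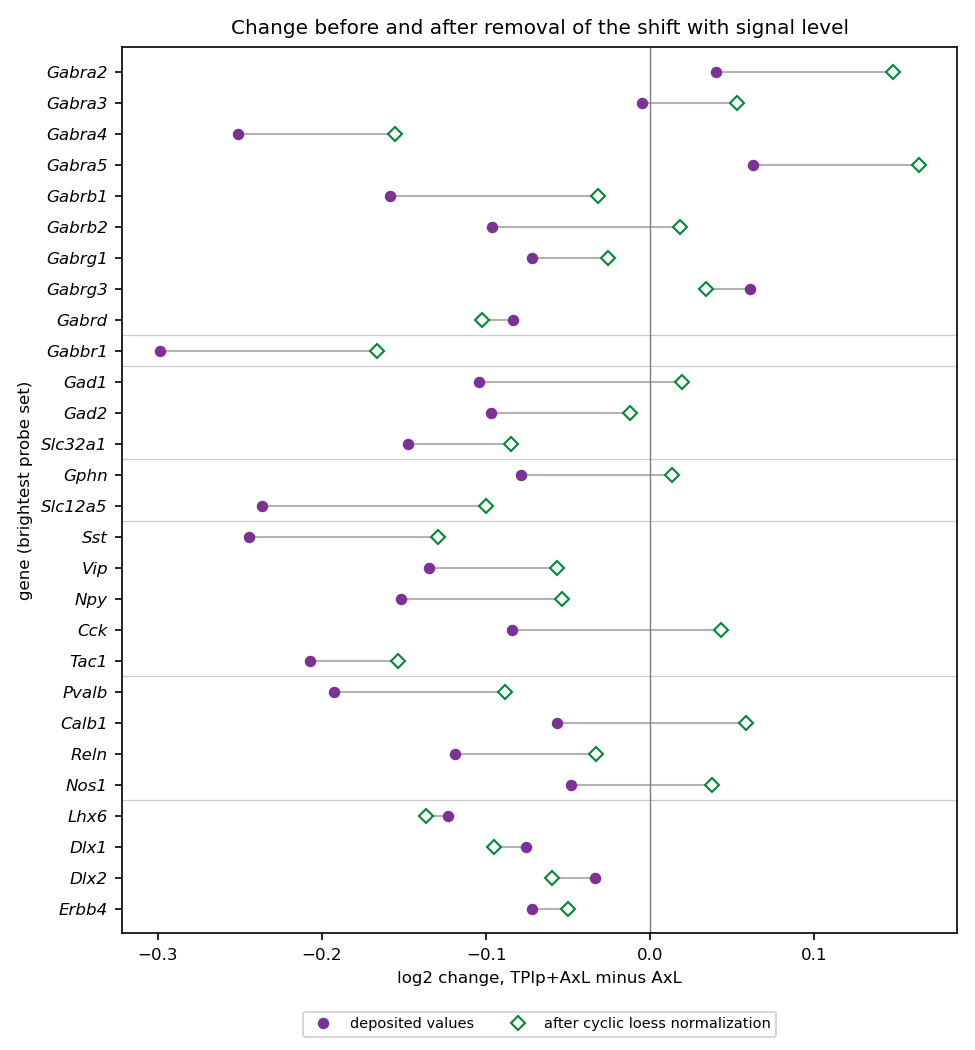
Log2 change of each gene in the deposited values (filled circles) and after cyclic loess normalization (open diamonds), joined by grey lines. Bright genes such as Gabbr1 move right, from -0.30 to -0.17, and the dim Lhx6, Dlx1 and Dlx2 move left. Erbb4, the dimmest gene, moves right, from -0.07 to -0.05. The number of negative genes goes from 25 to 18.

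The array AxL 4 was the highest of the 10 for 15 of the 28 genes, among them Gad1, Slc32a1, Slc12a5, Gabra4, Vip, Reln, Lhx6, Dlx1 and Dlx2. The same array was the highest for 23.1% of all probe sets, 38.6% of those with a level over 8 and 43.6% of those over 10. At those levels it was highest for 13 of 23 and 10 of 18 of the genes. Without it the median log2 change of the 28 genes was -0.08, and single values moved by over 1.5 times toward 0 for Gad1 (to -0.03), Slc32a1 (-0.10), Gphn (-0.03), Vip (-0.09), Reln (-0.06) and Nos1 (-0.03), beside Gabra4 and Lhx6 above, while Cck (-0.13) and Calb1 (-0.09) moved away from 0 and Gabra3 (0.08) and Dlx2 (0.01) turned positive. The SD was larger in AxL than in TPlp+AxL for 19 of the 28 genes, 67.9%, against 67.7% of all probe sets, and for 15 of the 28 with AxL 4 left out.

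Other genes of the GABA system were counted in the same way. Of 114 genes in 9 lists 99 were measured, 0 passed in either direction, and 22 had an unadjusted p under 0.05 in limma, against 14.3% of all probe sets. Their changes were negative for 70 and positive for 29, with a median of -0.07 on the log2 scale beside a level-matched median of -0.03. TPlp+AxL arrays lay wholly below AxL for 3 of the 99, Nlgn2, Clptm1 and Adarb2, against 1.64% of all probe sets. That share was 4.01% at levels of 10 to 11, where Nlgn2 lies, and 4.75% at 11 to 12, where Clptm1 lies.

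The partners of the inhibitory postsynapse had the lowest median of the 9 lists, with 14 of 16 genes measured, a value of -0.18 against -0.10 at their levels, 13 of the 14 below their level-matched median and 8 with an unadjusted p under 0.05, against 14.3% of all probe sets. The share of probe sets of the same levels with such a p was not counted, and nothing is read from the gap. Nlgn2, the neuroligin of inhibitory synapses, read 10.93, 10.93, 11.00, 11.42 and 10.92 in AxL and 10.68, 10.74, 10.74, 10.74 and 10.87 in TPlp+AxL, a change of -0.29 (SE 0.09, adjusted p = 0.187). Clptm1, which holds GABA-A receptors back inside the cell, had a change of -0.23 (SE 0.06, adjusted p = 0.123). In both the groups did not overlap. Both genes were highest in AxL 4, and without that array their changes were -0.19 and -0.18. Among 10 of 11 chloride transporters and their kinases the median was -0.15 against -0.07 at their levels, with the channel Clcn2 at -0.25 (SE 0.07, adjusted p = 0.163) and Slc12a2, a chloride importer, at -0.37 (SE 0.13, adjusted p = 0.243). Slc12a2 was high on the arrays high in choroid plexus genes, at 11.20 in AxL 3, 10.72 in AxL 5 and 10.60 in TPlp+AxL 1, and its change was -0.24 without AxL 3 and -0.26 without all 3.

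GABA uptake and breakdown, 7 of 8 genes measured, had a median of -0.10, with the transaminase Abat at -0.22 (SE 0.10, adjusted p = 0.326) and Aldh5a1, the next enzyme of the shunt, at -0.15 (SE 0.06, adjusted p = 0.27). Partners of GABA-B receptors, 7 of 8 measured, had a median of -0.03, with the G protein subunit Gnao1 at -0.21 (SE 0.12, adjusted p = 0.434; -0.12 without AxL 4) and Kctd12b at -0.09 (SE 0.05, adjusted p = 0.426). These 2 groups were near the level-matched medians of -0.08 and 0.01.

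The other 5 lists had medians between -0.08 and 0.04. For 6 of 10 further GABA-A subunits the median was 0.04, with Gabre at 0.16 (adjusted p = 0.198) and Gabrq at 0.07 (adjusted p = 0.484). For all 14 receptors of interneuron peptides it was 0.02, with Npy2r at 0.23 (adjusted p = 0.328) and Sstr4 at -0.14 (adjusted p = 0.416). Further interneuron markers, 23 of 26 measured, had a median of -0.08, with Adarb2 at -0.16 (adjusted p = 0.18) and Cplx1 at -0.16 (adjusted p = 0.194). Further transcription factors, 14 of 17 measured, had a median of -0.01, with Npas1 at -0.08 (adjusted p = 0.446) and Nr2f2 at -0.15 (adjusted p = 0.586), and the 4 neuregulins, ligands of Erbb4, one of 0.00 (Nrg3 -0.07, adjusted p = 0.576, and Nrg1 0.02, adjusted p = 0.901).

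Markers of other cells were read beside these genes. Of 9 excitatory neuron genes measured, 1 fell, the calmodulin-binding Nrgn (log2 change -0.27, SE 0.04, adjusted p = 0.0078), and the list median was -0.19 against -0.12 at its levels. Of all probe sets, 0.189% were lower in that test. An unadjusted p under 0.05 in limma was found for 4 of these 9 genes, against 14.3% of all probe sets. The Nrgn call was lost after quantile normalization (adjusted p = 0.308), after cyclic loess (adjusted p = 0.241) and without the 3 arrays high in choroid plexus genes (adjusted p = 0.19). The mean over the excitatory neuron genes ran from 11.11 to 11.36 in AxL and from 10.97 to 11.12 in TPlp+AxL. The 10 pan-neuronal genes had a median of -0.15 against -0.14 at their levels, and 0 passed in limma. Of the 10, 5 had an unadjusted p under 0.05 in limma, against 14.3% of all probe sets. Syt1 was at -0.24 (adjusted p = 0.117) and Nefl at -0.22 (adjusted p = 0.146). The pan-neuronal list means ran from 12.24 to 12.45 in AxL and from 12.09 to 12.31 in TPlp+AxL. The median over genes of the change less its level-matched median was -0.05 and -0.04 for these lists and -0.03 for the GABA and interneuron genes.

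Glial and vascular lists had negative medians too, with 0 genes passing in each, but they differed in how far they lay from their levels. Astrocytes had a median of -0.14 against -0.12 at their levels (Gja1 -0.17, adjusted p = 0.101, and S100b -0.16, adjusted p = 0.169). Microglia had -0.09 against -0.06 (Aif1 0.40, adjusted p = 0.181, and Fcrls -0.45, adjusted p = 0.183). Oligodendrocytes had -0.21 against -0.10, with 9 of 9 genes below their level (Mobp -0.36, adjusted p = 0.0752, and Mag -0.26, adjusted p = 0.196). Endothelium had -0.17 against -0.02, with 8 of 9 below (Slco1a4 -0.33, adjusted p = 0.0599, and Tek -0.31, adjusted p = 0.0672). An unadjusted p under 0.05 in limma was found for 4 of 10 astrocyte, 2 of 9 microglia, 5 of 9 oligodendrocyte and 5 of 9 endothelial genes, against 14.3% of all probe sets. Their list means overlapped between the groups. Choroid plexus genes had a median of -0.33, with 0 of 11 passing, also at an unadjusted p under 0.05, and the uneven spread over the arrays given above (Kl -0.43, adjusted p = 0.572, and -0.13 without AxL 3; Kcnj13 -0.96, adjusted p = 0.63, and -0.25 without AxL 3). T cell genes had a median of 0.09 and list means from 8.33 to 8.42 in AxL and from 8.50 to 8.72 in TPlp+AxL, and Thy1, which neurons also express, fell (log2 change -0.25, SE 0.05, adjusted p = 0.0408). The Thy1 call held without AxL 5 or TPlp+AxL 1 and was lost in the other 8 fits with 1 array left out (adjusted p up to 0.133), and after quantile normalization the change was -0.12 (adjusted p = 0.282). The part of these cell types in the values of the GABA and interneuron genes was not tested.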

How the data were processed

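The values are log2 expression per Affymetrix probe set, deposited by the authors after RMA per the submitters' processing notes. Which program ran RMA is not given in the sources used here. All 10 arrays, 5 per group, were grouped by the labels. The 64 control probe sets were left out, and 45037 were tested with limma 3.58.1 in R 4.3.3 (lmFit, eBayes without trend, two-sided), with no filter and Benjamini-Hochberg adjustment over all of them at 0.05. A gene is said to have risen or fallen only past that threshold. The platform's annotation gave 34945 probe sets 1 symbol, 932 several and 9160 none, and 34741 symbols were matched through Entrez identifiers to a GRCm38.p6 gene table. The test was checked on simulated data. P-values measure the spread between these mice, and the number of arrays limits the precision.

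All 29 listed genes are named, and from each further list the genes past the threshold or else the 2 with the smallest p. Markers named outside this rule, to check the tissue or beside the interneuron genes, are identified where they are given. The genes and lists were chosen with earlier results of these data known. Alternatives were a trended and robust variance, a filter on dim probe sets, subtracted array medians, quantile and cyclic loess normalization, array weights, 1 or averaged probe sets per gene, no shared-sequence probe sets, a replicate block, each array left out, the 3 arrays high in choroid plexus genes left out, and an adjusted p under 0.10.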

Additional observations from a re-analysis of the deposited data

Results flagged for a closer look

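Each gene's 5 values in a group were examined for an array far from the other 4, and 3 of 56 such groups (5.36%) held one, where chance gives about 1 in 20. Gabra4 was at 11.82 in AxL 4 and between 10.61 and 10.96 on the other AxL arrays. Vip was at 10.20 in TPlp+AxL 5 and between 9.92 and 9.94 on the other TPlp+AxL arrays. Nos1 was at 10.24 in TPlp+AxL 1 and between 10.38 and 10.41 on the other TPlp+AxL arrays.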

How the results depend on the processing

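The count of the 28 genes that fell, 1, was 2 (Gabbr1 and Slc12a5) with array medians subtracted, with array weights, with 1 probe set per gene and at an adjusted p under 0.10. It was 0 after quantile normalization, after cyclic loess, with probe sets averaged, with the replicate block and with the 3 arrays high in choroid plexus genes left out. Leaving out each array in turn gave 1 to 2, with 2 without AxL 2, and Gabbr1 kept its call in all 10 of these fits (adjusted p from 0.0107 to 0.0343). With the replicate block Gabbr1 had an adjusted p of 0.0576 and 38 probe sets were lower over the table. Same-numbered arrays correlated from -0.22 to 0.36, over 0.1 in 2 of 5 pairs, so the numbers were not taken as pairs. Over the table, the 85 lower probe sets were 210 with medians subtracted, 43 after cyclic loess, 288 with array weights (465 higher), 0 with the 3 arrays out (1 higher) and 267 at an adjusted p under 0.10 (490 higher). Leaving out single arrays gave 159 to 387 higher and 26 to 187 lower probe sets: lower were 187 without AxL 2, 36 without AxL 3, 32 without AxL 5, and 41, 28, 26 and 47 without TPlp+AxL 2, 3, 4 and 5, and higher were 188 without AxL 5 and 159 without TPlp+AxL 4. Signs turned after quantile normalization for Gabra3 (0.042), Gabrb2 (0.018), Gad1 (0.026), Gphn (0.012), Cck (0.053), Calb1 (0.066), Nos1 (0.028) and Nrg1 (-0.013), and after cyclic loess for Gabra3 (0.053), Gabrb2 (0.018), Gad1 (0.019), Gphn (0.013), Cck (0.043), Calb1 (0.059), Nos1 (0.037) and Nrg1 (-0.010). They also turned with medians subtracted for Nrg1 (-0.0095), with array weights for Gabra2 (-0.032) and Gabra3 (0.044), with probe sets averaged for Gabra2 (-0.011), Gabra3 (0.027), Gabrb2 (0.0037), Gad2 (0.029), Calb1 (0.091) and Syt1 (0.026), and with the 3 arrays out for Gabra2 (-0.037). With single arrays left out, Gabra2 ran from -0.028 to 0.072, Gabra3 from -0.066 to 0.078, Dlx2 from -0.073 to 0.012 and Nrg1 from -0.012 to 0.056. The cause of these differences was not tested, except that the fits with fewer arrays hold fewer samples.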
